A study of Mus musculus with 32 samples.

Results

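The synaptic vesicle release machinery was followed through 40 genes, a list of SNARE proteins, synaptotagmins, complexins, priming proteins, active-zone scaffolds, Rab3 GTPases, synapsins and vesicle membrane proteins chosen by name. All 40 were rows of the count tables, which hold 23420 genes, and all 40 passed the filter on low counts that left 15589 genes for testing. RNA was sequenced from the striatum of 8 naïve C57BL/6J (B6) mice and of 8 naïve B6.D2 congenic littermates of Line 4a, all about 50 days of age. Line 4a mice were heterozygous for a segment of chromosome 11 from the DBA/2J (D2) strain on a B6 background. At the markers the study genotyped in sampled mice of Line 4a and related lines, the background was B6 except for a D2 marker on chromosome 3 that both congenic and control littermates could carry. Each library held the pooled left and right striatal punches of 1 mouse, and a punch of this size takes all cell types of the region with it. The comparison asked which transcripts differed between congenic and control striatum before any drug was given.

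A synaptic vesicle fuses when SNARE proteins on the vesicle (synaptobrevins) and on the plasma membrane (syntaxin and SNAP-25) zip together. Munc13 and CAPS proteins prime the vesicle, complexins hold the primed complex, and synaptotagmins sense the calcium that enters with an action potential, while RIM, Bassoon and Piccolo organise the release site and NSF with SNAP adaptors takes spent SNARE complexes apart. Most cells of the striatum are inhibitory projection neurons, whereas its excitatory terminals come from cortex and thalamus. The RNA of those excitatory neurons lies mainly in their own cell bodies outside the striatum. A punch holds the RNA of those cell bodies only as far as it takes in neighbouring tissue.

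Between 19032826 and 33748353 counts per mouse were assigned to genes, from a pair of lanes for 15 mice and from 1 lane for B6 mouse 7. The lowest count of any member in any mouse was 70, for *Rims3* in Line 4a mouse 1. The spread between mice and not counting error thus set the precision for most members. A pair of libraries stood apart from the others over all genes. The library of Line 4a mouse 1 had a median correlation of 0.967 with the other libraries of its genotype and that of B6 mouse 8 one of 0.987, against at least 0.990 for the remaining 14, and results that rest on either are given with and without them. Striatal identity was checked with markers of projection neurons: as CPM, a gene's counts relative to its library total after TMM scaling, the 16 markers summed to 7488 to 10914 CPM in B6 and 8151 to 9381 CPM in Line 4a mice, and 0 of 16 passed an unadjusted p of 0.05.

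The sequences just before the start sites of 5 members are shown because these members stand for the patterns described below. *Cadps2* had the lowest log2 fold change of the 40 members, *Stx1a* was the member with the highest correlation with cortical markers, *Cplx1* and *Cplx3* are paralogues whose ratio differed between genotypes, and *Vamp1* was the member with the highest log2 fold change. Each run is the 250 bases before a RefSeq start (GRCm38.p6), written 5′ to 3′ on the strand of the gene. For *Cadps2* this start is not the outermost, since the gene on its minus strand begins at 23841175 and the window lies within it. Capitals mark GGGCGG (the core of the Sp1 GC box) or its complement CCGCCC, and TGACG (the first 5 bases of the cyclic AMP response element) or its complement CGTCA.
Cadps2, chr6:23839422-23839671, minus strand: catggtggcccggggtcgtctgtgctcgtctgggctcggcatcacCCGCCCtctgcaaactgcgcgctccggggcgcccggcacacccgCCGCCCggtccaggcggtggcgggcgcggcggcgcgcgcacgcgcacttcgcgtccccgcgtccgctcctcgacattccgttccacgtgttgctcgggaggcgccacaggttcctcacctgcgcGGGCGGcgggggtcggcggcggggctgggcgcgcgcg
Stx1a, chr5:135023232-135023481, plus strand: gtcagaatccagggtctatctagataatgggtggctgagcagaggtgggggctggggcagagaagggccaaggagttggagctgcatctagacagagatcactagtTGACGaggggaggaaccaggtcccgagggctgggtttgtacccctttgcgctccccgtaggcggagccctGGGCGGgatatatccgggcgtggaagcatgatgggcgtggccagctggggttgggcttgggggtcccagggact
Cplx1, chr5:108550028-108550277, minus strand: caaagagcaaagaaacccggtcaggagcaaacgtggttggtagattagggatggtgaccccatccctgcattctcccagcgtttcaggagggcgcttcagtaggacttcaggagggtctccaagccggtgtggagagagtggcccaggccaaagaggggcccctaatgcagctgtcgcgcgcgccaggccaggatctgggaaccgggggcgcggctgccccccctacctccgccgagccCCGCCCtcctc
Cplx3, chr9:57606282-57606531, minus strand: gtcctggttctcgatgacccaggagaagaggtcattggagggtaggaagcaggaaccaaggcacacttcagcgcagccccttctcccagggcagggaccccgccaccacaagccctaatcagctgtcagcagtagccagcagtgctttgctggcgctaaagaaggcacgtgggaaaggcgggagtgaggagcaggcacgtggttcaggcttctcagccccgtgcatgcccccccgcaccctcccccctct
Vamp1, chr6:125215331-125215580, plus strand: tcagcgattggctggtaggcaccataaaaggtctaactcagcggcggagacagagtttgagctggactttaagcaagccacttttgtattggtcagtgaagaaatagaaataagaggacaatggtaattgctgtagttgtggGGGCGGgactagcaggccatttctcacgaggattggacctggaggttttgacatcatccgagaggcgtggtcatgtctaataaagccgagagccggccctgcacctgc

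The windows differed in base composition. *Cadps2* had 78.0% G or C and 44 CpG dinucleotides, *Cplx1* 64.8% and 15, *Cplx3* 62.8% and 9, *Stx1a* 62.0% and 9, and *Vamp1* 50.4% and 9. GGGCGG was present 3 times in *Cadps2* and 1 time in each of *Stx1a*, *Cplx1* and *Vamp1*, and these letters were not in the *Cplx3* window. RefSeq windows were at hand for 30 members, 38 windows in all, since some genes have several starts. *Snap25*, *Vamp2*, *Syt4*, *Syt5*, *Syt7*, *Syt17*, *Doc2a*, *Doc2b*, *Rims2* and *Syn3* had no entry. GGGCGG on either strand was in 68.4% of member windows and in 32.7% of all 32851 windows of this length, TATAAA in 2.6% and 12.4%, CAGATG (an E-box) in 7.9% and 14.4%, and TGACG in 18.4% and 17.8%. The full palindrome TGACGTCA, which contains TGACG, was in 1 member, *Syn1* (all windows, 1.5%). The median window of the members held 61.2% G or C and 13.5 CpG dinucleotides, against 52.4% and 6 over all windows. These are descriptions of letters in a window, and none was tested against expression.

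Levels between genes were compared as CPM per kb of annotated exon, averaged over the 16 mice. The range ran from 396.3 for *Cplx2* to 2.10 for *Rims3*. *Cplx2* was followed by *Cplx1* (305.1), *Snap25* (254.0), *Vamp2* (240.6), *Syt11* (193.7), *Rab3a* (160.0), *Syp* (141.2), *Syt1* (125.5), *Syn1* (109.1) and *Rph3a* (97.9). The core of the fusion apparatus in these punches was thus *Snap25*, *Vamp2* and complexins 1 and 2 by level, with *Syt1*, the fast calcium sensor of most forebrain synapses, as the leading sensor of its family after *Syt11*, a family member that does not bind calcium in the usual way. Within families the order was steep. *Cplx3* stood at 3.21 CPM per kb, *Cadps2* at 3.83 against 37.0 for *Cadps*, and *Unc13b* at 2.74 against 49.1 for *Unc13a* and 49.9 for *Unc13c*. The last of these neighbours, *Unc13a* and *Unc13c*, did not differ beyond the spread between mice. *Syt2*, a fast sensor best known from hindbrain synapses, stood at 7.09.

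**Figure D1:**
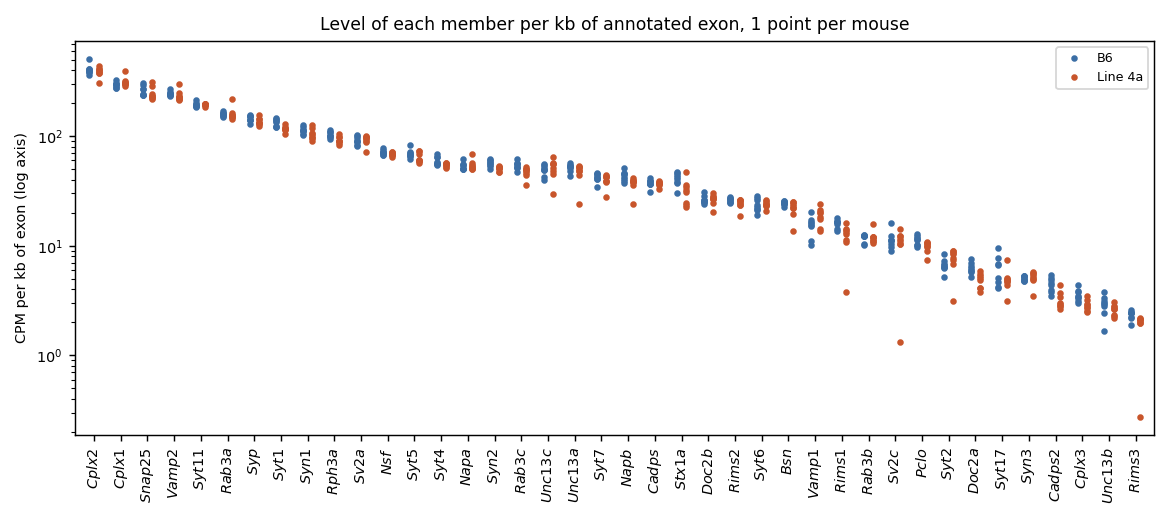
Level of each of the 40 members in CPM per kb of annotated exon on a log axis, 1 point per mouse, B6 in blue and Line 4a in orange, ordered by the mean over 16 mice. The order ran from *Cplx2* (396.3) to *Rims3* (2.10), and single low points in *Rims1*, *Sv2c* and *Rims3* are Line 4a mouse 1.

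The release machinery as a list stood slightly lower in Line 4a mice. The mean was lower in 29 of 40 members and higher in 11, and the median log2 fold change of the 40 was -0.10, against 0.01 over all genes tested. At an unadjusted p of 0.05 (edgeR quasi-likelihood test), 12 members, or 30.0%, were lower and 1, or 2.5%, was higher, whereas 5.14% of all genes tested were lower and 4.86% higher by the same rule. After Benjamini-Hochberg adjustment over all 15589 genes, no member passed a false discovery rate (FDR) of 5% or 20%, and the lowest FDR among them was 0.331. Of all genes, 1 passed 5% (0.00641%) and 3 passed 20% (0.0192%). With DESeq2, 1 member passed an FDR of 5% and 6 passed 20%, beside 0.160% and 1.69% of all genes. Below, lower, higher and passed refer to the unadjusted p of 0.05 unless an FDR is named, and n is 8 mice a genotype. In 0 of 40 members were the genotypes without overlap, as they were in 9 of all genes tested (0.0577%). The list was chosen with results of these libraries known, so its direction is a description and not a test.

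**Figure D2:**
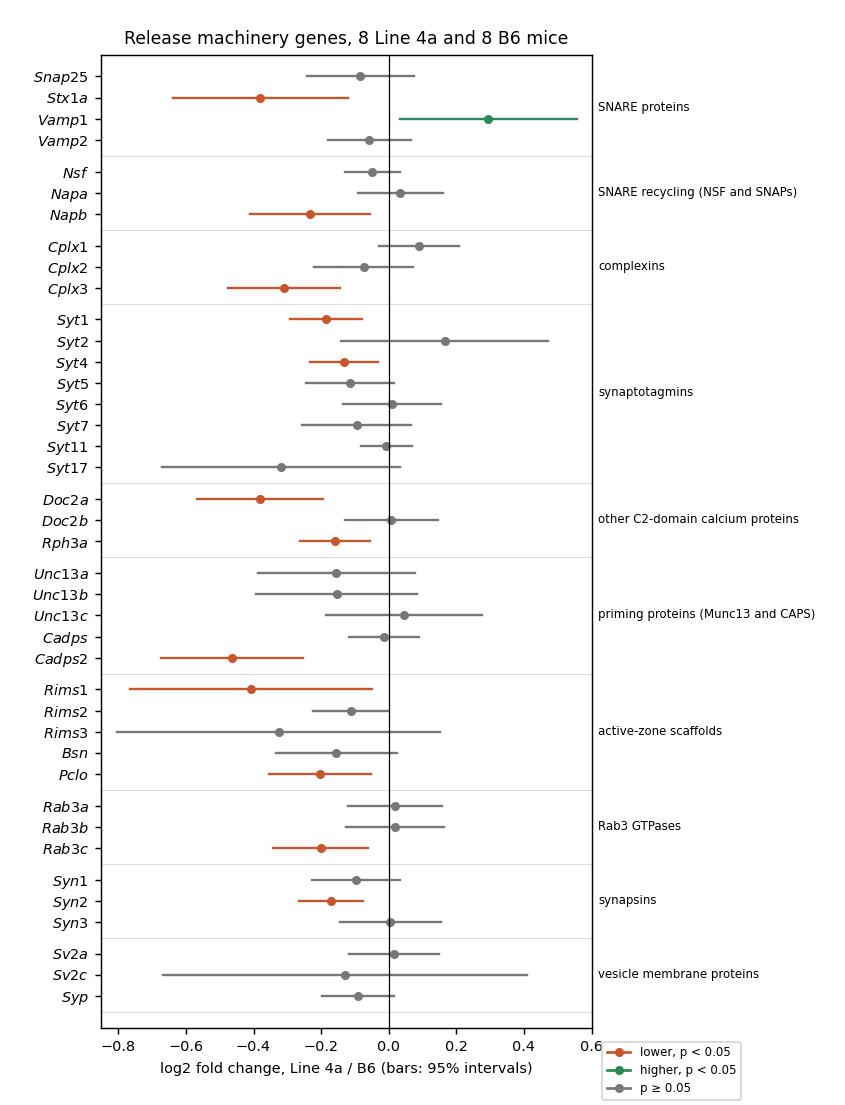
Log2 fold change (Line 4a over B6) of each member with bars for the 95% interval from its standard error, grouped by role, orange for lower and green for higher at an unadjusted p under 0.05 and grey for the rest. The 12 orange points lie between -0.46 (*Cadps2*) and -0.13 (*Syt4*), and *Vamp1* is the green point at 0.29.

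Among the SNARE proteins, the syntaxin was lower and the minor synaptobrevin higher. *Stx1a* (chr5:135023482-135051100) encodes syntaxin 1A, the plasma membrane SNARE. Its lowest, median and highest levels were 81.1, 110.7 and 126.3 CPM in B6 mice and 60.3, 84.3 and 125.8 CPM in Line 4a mice. The genotypes overlapped, Line 4a mouse 2 was far the highest of its group, and 7 of 8 Line 4a mice lay below the B6 median. The means were 108.7 ± 14.6 and 83.6 ± 21.9 CPM (SD, n = 8 each). This is a log2 fold change of -0.38 (SE 0.13, p = 0.00997, FDR 0.400 in edgeR's quasi-likelihood test). *Vamp1* (chr6:125215581-125222306), the synaptobrevin enriched in brainstem and spinal cord, was at 88.0, 138.6 and 176.3 CPM in B6 and at 120.3, 167.9 and 211.1 CPM in Line 4a mice. Its means of 133.2 ± 28.4 and 163.3 ± 30.5 CPM gave a log2 fold change of 0.29 (SE 0.13, p = 0.0407, FDR 0.477), with 6 of 8 Line 4a mice above the B6 median. The highest Line 4a value was that of mouse 1 and the lowest B6 value that of mouse 8, the libraries that stood apart. With both left out the log2 fold change was 0.16 (p = 0.163). *Snap25* (-0.08, SE 0.08) and *Vamp2* (-0.06, SE 0.06), the abundant partners of syntaxin at forebrain synapses, did not pass. Their levels were 1607 to 2078 CPM in B6 and 1486 to 2100 CPM in Line 4a mice for *Snap25*, and 889.5 to 1036 and 820.1 to 1137 CPM for *Vamp2*.

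Of the members that take SNARE complexes apart, *Napb* alone passed. *Napb* (chr2:148693985-148732425) encodes beta-SNAP, the brain adaptor that recruits the ATPase NSF. It measured 262.5, 308.4 and 360.3 CPM (lowest, median, highest) in B6 and 169.8, 271.7 and 292.0 CPM in Line 4a mice, all 8 of which lay under the B6 median. The log2 fold change was -0.23 (SE 0.09, p = 0.0185, FDR 0.431), and -0.17 without Line 4a mouse 1, whose 169.8 CPM was the low extreme. *Nsf* itself had means of 592.4 and 572.6 CPM (-0.05, SE 0.04). The ubiquitous adaptor *Napa* had a log2 fold change of 0.03 (SE 0.06).

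The rare complexin was lower and the abundant pair did not pass. *Cplx3* (chr9:57599992-57606281), a membrane-anchored complexin known from retinal ribbon synapses and from deep cortical layers, measured 8.56, 9.67 and 12.4 CPM in B6 and 6.97, 7.98 and 9.78 CPM in Line 4a mice. This gave a log2 fold change of -0.31 (SE 0.08, p = 0.0018, FDR 0.331), and 6 of 8 Line 4a mice lay below every B6 mouse. From the second lane of each mouse alone it was -0.19 (p = 0.059) and did not pass. *Cplx1* (647.3 ± 37.5 and 688.6 ± 71.6 CPM) and *Cplx2* (2002 ± 220.3 and 1901 ± 189.5 CPM) had log2 fold changes of 0.09 (SE 0.06) and -0.07 (SE 0.07).

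Within a mouse, the ratio of *Cplx1* to *Cplx3* was the only paralogue ratio of 49 that passed after adjustment. The log2 ratio averaged 6.01 in B6 (SD 0.19) and 6.40 in the congenics (SD 0.14), a difference of 0.39 (exact permutation p = 0.000777, two-sided, adjusted p = 0.0381 over the 49 pairs, n = 8 each), and 7 of 8 Line 4a mice lay above all B6 mice. Without the libraries that stood apart it was 0.41. Of the 49, 8 pairs had an unadjusted permutation p under 0.05. The ratios of *Cadps* to *Cadps2* (difference 0.46, adjusted p = 0.0635, exact permutation test) and of *Rims1* to *Rims2* (-0.38, adjusted p = 0.0635, exact permutation test) came next and did not pass. Without the libraries that stood apart these differences were 0.36 and -0.21. Both members of each of these 3 pairs had been seen in the fold changes, so the ratios add a within-mouse scale and not separate evidence.

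Of the synaptotagmins, *Syt1* and *Syt4* were lower and 6 did not pass. *Syt1* (chr10:108497650-109010980), the fast calcium sensor, measured 1006, 1130 and 1219 CPM in B6 and 872.1, 976.7 and 1080 CPM in Line 4a mice. With means of 1113 ± 84.1 and 979.2 ± 58.7 CPM its log2 fold change was -0.19 (SE 0.05, p = 0.003, FDR 0.346), and 6 of 8 Line 4a mice lay below every B6 mouse. *Syt4*, a synaptotagmin of dense-core vesicles and dendrites, measured 214.3, 224.1 and 267.2 CPM in B6 and 201.2, 214.6 and 222.7 CPM in Line 4a mice. Each of the 8 congenics lay under the B6 median, and the log2 fold change was -0.13 (SE 0.05, p = 0.0175, FDR 0.430). *Syt11*, the other abundant member of the family, was at 1017 ± 43.7 CPM in B6 and 1012 ± 21.7 CPM in Line 4a mice (-0.01, SE 0.04), one of the narrowest intervals of the list. The log2 fold changes of *Syt5* (-0.11, SE 0.07), *Syt6* (0.01, SE 0.07), *Syt7* (-0.10, SE 0.08), the asynchronous release sensor, and *Syt17* (-0.32, SE 0.18) did not pass. *Syt2* was at 0.17 (SE 0.16, p = 0.302) with all mice. Line 4a mouse 1 was its lowest mouse at 21.4 CPM, and without the libraries that stood apart the log2 fold change was 0.27 (p = 0.00499).

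Other calcium-binding proteins with C2 domains were split. *Doc2a* (chr7:126846983-126852705), a high-affinity sensor of excitatory terminals that acts in spontaneous and asynchronous release, measured 14.4, 17.2 and 21.1 CPM in B6 and 10.5, 13.9 and 16.5 CPM in Line 4a mice. Each of the 8 congenics lay under the B6 median and 5 below every B6 mouse. The log2 fold change was -0.38 (SE 0.10, p = 0.000792, FDR 0.331). In the annotation used here for exon lengths, *Doc2a* shares 951 exon bases with *Ino80e*. Counting discarded ambiguous reads, so reads there were lost to both genes if the authors' annotation holds the same overlap, which was not checked. Its paralogue *Doc2b*, described at inhibitory terminals, was at 115.4 ± 9.98 CPM in B6 and 116.0 ± 13.1 CPM in Line 4a mice (0.01, SE 0.07). *Rph3a* (chr5:120940499-121010116), rabphilin, a Rab3 effector, measured 388.0, 419.6 and 465.1 CPM in B6 and 340.1, 373.5 and 428.1 CPM in the congenics (log2 fold change -0.16, SE 0.05, p = 0.00781, FDR 0.397).

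*Cadps2* was the priming gene that differed, and it had the smallest p of the 40 members. *Cadps2* (chr6:23262773-23841175) encodes CAPS2, which primes dense-core and synaptic vesicles and is known for its part in the release of brain-derived neurotrophic factor. Its lowest, median and highest levels were 34.6, 44.2 and 53.6 CPM in B6 and 26.0, 29.5 and 43.4 CPM in Line 4a mice. Each of the 8 congenics lay under the B6 median and 6 below every B6 mouse, and the exception at the top was again mouse 2. The means of 44.0 ± 6.58 and 31.9 ± 5.81 CPM gave a log2 fold change of -0.46 (SE 0.11, p = 0.000392, FDR 0.331), a level 1.38-fold lower. The exact permutation test of the same values gave p = 0.00218 (two-sided), where the smallest p this design allows is 0.000155. *Cadps2* was the member that passed an FDR of 5% with DESeq2 (FDR 0.0399). *Cadps*, the major CAPS gene here, was at 205.8 ± 17.1 CPM in B6 and 203.7 ± 10.2 CPM in Line 4a mice (-0.01, SE 0.05). The Munc13 genes *Unc13a* (-0.16, SE 0.12), *Unc13b* (-0.15, SE 0.12) and *Unc13c* (0.04, SE 0.12) did not pass.

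The active-zone scaffolds had a lower mean in 5 of 5, where 45.1% of all genes tested did, and 2 passed. Line 4a mouse 1 was the lowest of its genotype in all 5. *Rims1* (chr1:22285972-22806158), which tethers Munc13 and calcium channels at the release site, measured 99.0, 119.1 and 130.7 CPM in B6 and 27.7, 94.9 and 116.0 CPM in the congenics. The log2 fold change of -0.41 (SE 0.18, p = 0.0384, FDR 0.476) carried the low value of Line 4a mouse 1. Without that mouse it was -0.27 (p = 0.00177), and the lowest of the other Line 4a mice was at 77.7 CPM. *Pclo* (chr5:14514906-14863465), Piccolo, measured 198.3, 233.3 and 262.8 CPM in B6 and 150.6, 204.3 and 222.2 CPM in Line 4a mice, all 8 under the B6 median (-0.20, SE 0.08, p = 0.016, FDR 0.421). *Rims2* (-0.11, SE 0.06, p = 0.0679), *Bsn* (-0.16, SE 0.09, p = 0.105), which encodes Bassoon, and *Rims3* (-0.33, SE 0.24, p = 0.199) did not pass in the quasi-likelihood test. Without the libraries that stood apart the log2 fold changes were -0.06 for *Rims2*, -0.09 for *Bsn* and -0.27 for *Rims1*.

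Each of the remaining small-GTPase and synapsin families had 1 lower member beside paralogues that did not pass. *Rab3c* (chr13:110054187-110280996), a vesicle GTPase, measured 421.7, 481.4 and 550.7 CPM in B6 and 319.0, 432.1 and 470.6 CPM in Line 4a mice, all 8 under the B6 median (-0.20, SE 0.07, p = 0.0109, FDR 0.406). *Rab3a*, the major Rab3 of the brain, and *Rab3b* both had a log2 fold change of 0.02 (SE 0.07). *Syn2* (chr6:115134902-115282626), a synapsin that holds the reserve pool of vesicles, measured 286.5, 323.4 and 353.8 CPM in B6 and 266.6, 292.3 and 303.1 CPM in Line 4a mice. Each of the 8 congenics lay under the B6 median (-0.17, SE 0.05, p = 0.00238, FDR 0.340). *Syn1* (-0.10, SE 0.07) and *Syn3* (0.01, SE 0.08) did not pass. The vesicle membrane proteins *Syp* (synaptophysin, -0.09, SE 0.05, p = 0.110), *Sv2a* (0.02, SE 0.07) and *Sv2c* (-0.13, SE 0.27) had no member that passed.

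**Figure D3:**
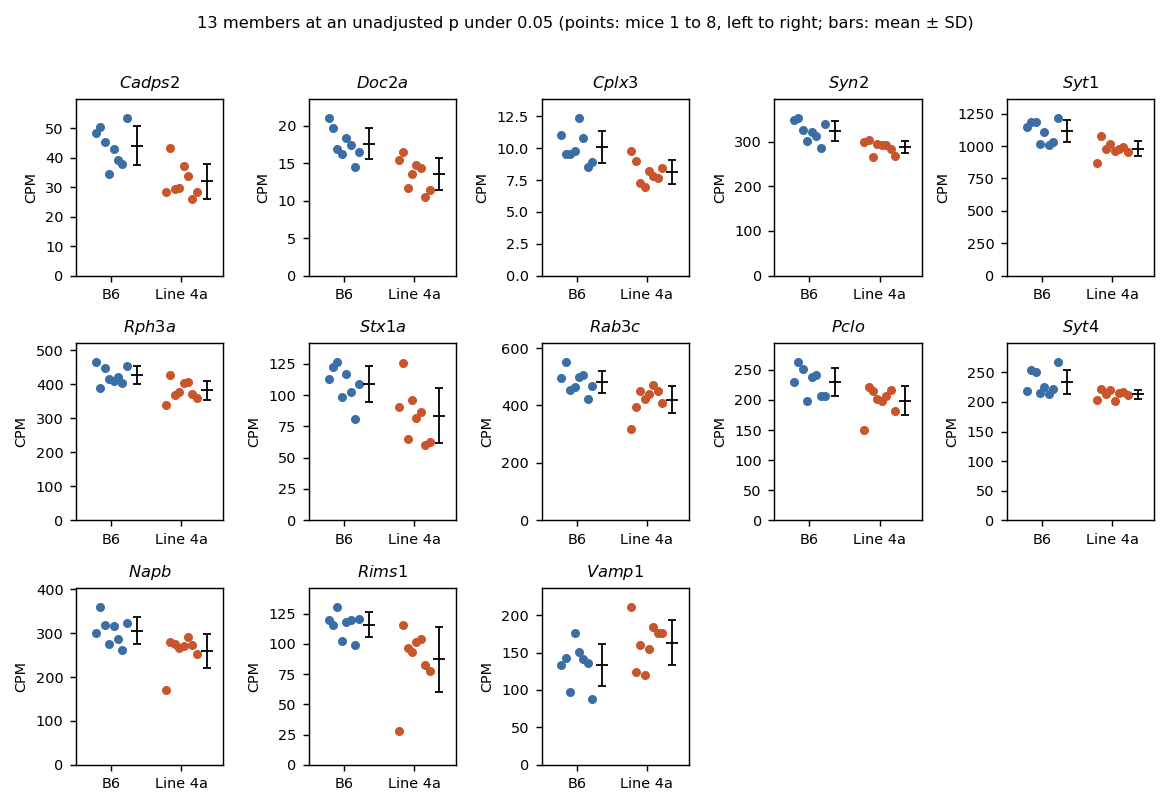
CPM of the 13 members at an unadjusted p under 0.05 in each mouse (points, mice 1 to 8 from left to right), with the mean and SD of 8 mice at the side, each axis starting at 0. The genotypes overlap in every panel, and Line 4a mouse 1 is the low point of *Rims1* (27.7 CPM) and *Napb* (169.8 CPM).

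The 12 lower members were lower by 1.10 to 1.38-fold, and in 9 of them each of the 8 congenics lay below the B6 median, with 7 of 8 in the other 3. These members were picked for being lower, so such counts follow in part from the choice. The same counts were not made for other genes lower by this rule. Libraries 1 to 8 were run on lanes 5 and 6 and libraries 9 to 16 on lanes 7 and 8, 4 mice of each genotype on either pair. All 12 had a negative log2 fold change within each pair of lanes, for example -0.45 and -0.48 for *Cadps2*, -0.37 and -0.39 for *Doc2a* and -0.19 and -0.15 for *Syn2*. *Rab3c* was at -0.31 on lanes 5 and 6 and at -0.10 on lanes 7 and 8. With 4 mice a group, 4 members were lower and 0 higher at an unadjusted p of 0.05 on lanes 5 and 6 (1.56% and 1.64% of all genes), and 10 were lower and 3 higher on lanes 7 and 8 (4.66% and 4.35% of all genes). The 4 were *Cadps2*, *Doc2a*, *Rab3c* and *Syn2*, and the 10 held 7 of the 12 together with *Rims2*, *Syt5* and *Vamp2*, while the 3 higher were *Vamp1*, *Syt2* and *Sv2a*.

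The libraries that stood apart touched the members unequally. In Line 4a mouse 1, 5 members lay more than 1 log2 unit below the other Line 4a mice, led by *Sv2c* (-3.13) and *Rims3* (-2.91), as did 6.04% of all genes, while *Rab3a* (0.52) and *Rab3b* (0.46) lay above them, and 21 members had this mouse as the lowest and 11 as the highest of its genotype (36.5% and 37.3% of all genes). Across members, the deviation of this mouse ran against exon length (Spearman's rho -0.49 across 40 genes of 1 library, which are not independent). Without Line 4a mouse 1, 17 members were lower and 1 was higher at an unadjusted p of 0.05, beside 7.54% and 5.82% of all genes. With B6 mouse 8 left out as well, 18 were lower and 1 was higher (all genes, 7.32% and 5.44%), and all 12 members named above were among the 18. *Unc13b* (-0.21, p = 0.0188), *Syp* (-0.13, p = 0.0093), *Vamp2* (-0.09, p = 0.0151), *Syn1* (-0.14, p = 0.021), *Rims3* (-0.14, p = 0.0231) and *Unc13a* (-0.09, p = 0.0483) joined them, and *Syt2* took the place of *Vamp1* as the higher member.

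**Figure D4:**
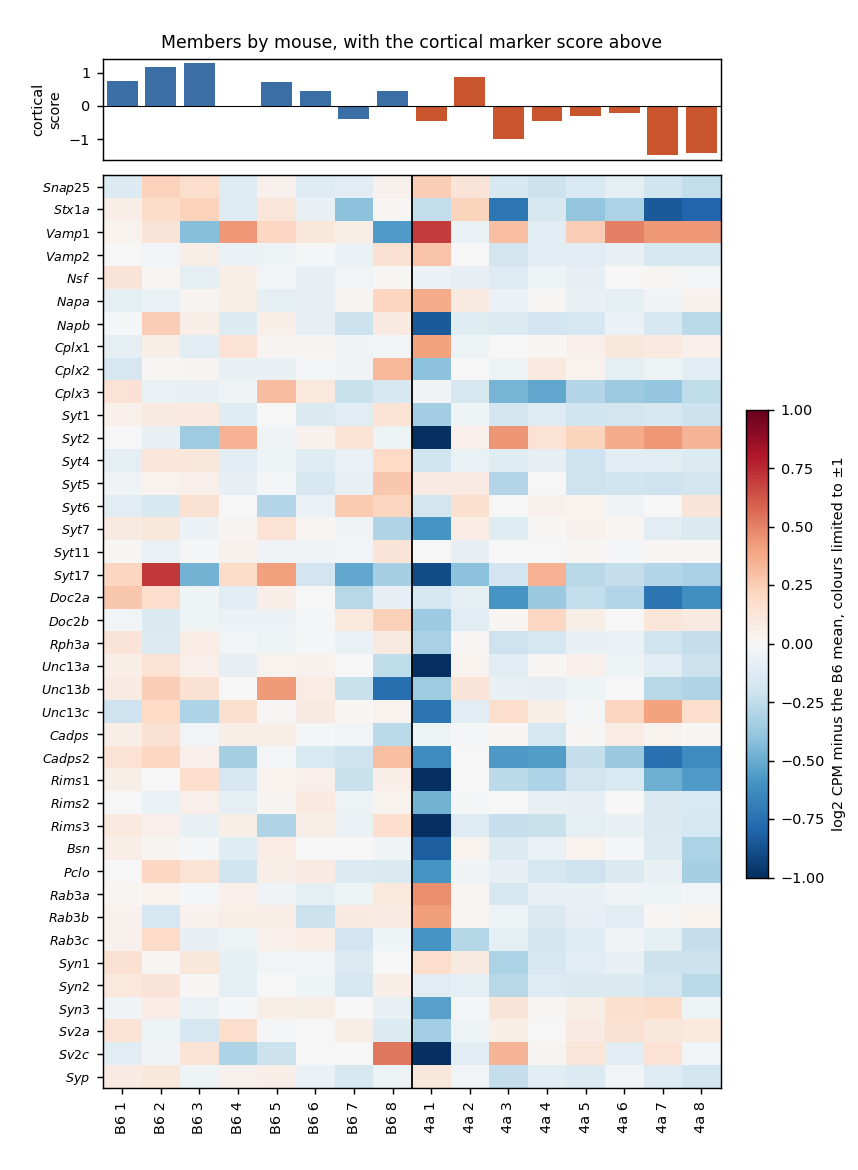
Log2 CPM of each member (rows) in each mouse (columns) minus the mean of the B6 mice, with colours limited to a range of 1 in either direction, and above it the cortical marker score of each mouse in standard deviations. Blue rows such as *Stx1a*, *Doc2a* and *Cadps2* are palest in Line 4a mouse 2, which has the highest score of its genotype (0.88), and the column of Line 4a mouse 1 shows dark cells in both directions.

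Markers of cortical glutamatergic neurons were also lower in Line 4a mice. All 16 markers of that list had a lower mean in Line 4a mice and 13 passed an unadjusted p of 0.05, with a median log2 fold change of -0.54. The leading ones were *Neurod6* (-0.56, SE 0.13) and *Kcnv1* (70.3 ± 11.4 and 54.1 ± 6.06 CPM). Their summed level was 852.3 to 1351 CPM in B6 and 594.6 to 1168 CPM in Line 4a mice, and none was at 0. Of 9 markers of claustrum and layer 6b, 5 were lower, led by *Gnb4* (-0.21) and *Nr4a2* (-0.45). A cortical score, the mean standardized log2 CPM of the 16 markers, ran from -0.39 to 1.29 in B6 mice (median 0.59) and from -1.48 to 0.88 in Line 4a mice (median -0.45). Line 4a mouse 2, with the highest score of its genotype, was also the highest Line 4a mouse in 9 of the 12 lower members. The share of all genes highest in that mouse was not counted. In bulk tissue, fewer cells of a type and less RNA per cell cannot be told apart.

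The relation to the cortical score differed widely between members. Since the score stood lower in most Line 4a mice, the relation was tested on values centred within each genotype, permuting mice within genotype (100000 resamples, two-sided, FDR over all 15589 genes). *Stx1a* had Pearson's r = 0.95 and Spearman's rho = 0.86 (permutation p = 1e-05, the smallest these resamples can give, and 9e-05, FDR 0.0087 and 0.056), with r = 0.96 within B6 and 0.95 within Line 4a mice. Without the 2 mice farthest from the median score, r was 0.90, and over uncentred values it was 0.93 and 1.00 within the lane pairs. *Doc2a* had r = 0.84 and rho = 0.82 (permutation p = 0.00012 and 0.00018, FDR 0.03 and 0.076), and 0.77 without those mice. These were the members whose r passed an FDR of 5%, beside 0.571% of all genes. *Cadps2* (r = 0.80, rho = 0.80, FDR 0.074 and 0.1) and *Syn2* (r = 0.74, rho = 0.74, FDR 0.074 and 0.21) came next and did not pass. At an unadjusted permutation p of 0.05, r was positive in 9 members, 5 of them among the 12 lower, and negative in 0, where 4.06% of all genes were positive and 4.30% negative. The counts differ by rho. By that measure *Syt2* (rho = -0.64, permutation p = 0.0088) and *Doc2b* (rho = -0.54, permutation p = 0.039) were negative. *Vamp2*, *Napb*, *Unc13a* and *Rims1* were positive by rho and not by r. The shares of all genes refer to r. For other lower members the pooled relation within genotype did not pass, with r = 0.33 for *Cplx3*, 0.35 for *Syt4*, 0.41 for *Pclo* and 0.06 for *Rab3c*. In B6 and Line 4a mice taken apart, r was 0.32 and 0.36 for *Cplx3* and 0.51 and 0.22 for *Syt4*. It was 0.85 and 0.16 for *Pclo* and 0.61 and -0.21 for *Rab3c*, and Line 4a mouse 1 was the lowest mouse of its genotype for both. *Cadps* (0.04) was near 0, and *Vamp1* (-0.41) did not pass. The score and the members come from the same libraries.

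**Figure D5:**
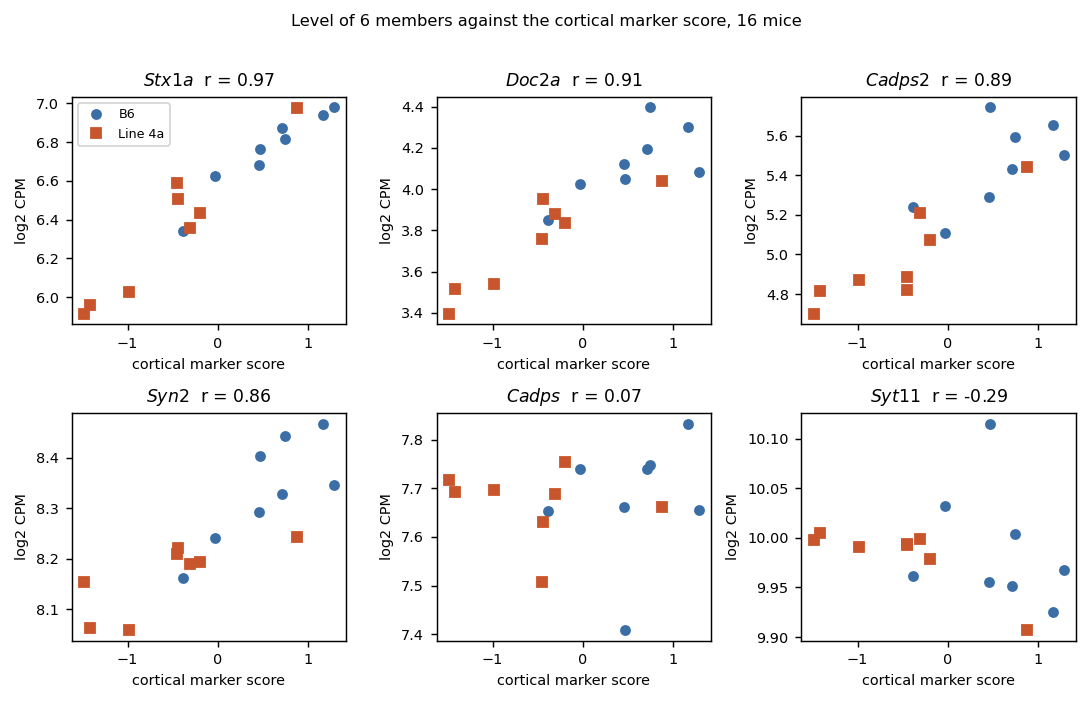
Log2 CPM of 6 members against the cortical marker score (mean standardized log2 CPM of 16 markers) in 16 mice, B6 as blue circles and Line 4a as orange squares, with r over all mice above each panel. This r includes the difference between genotypes, and it is 0.97 for *Stx1a*, 0.91 for *Doc2a*, 0.89 for *Cadps2*, 0.86 for *Syn2*, 0.07 for *Cadps* and -0.29 for *Syt11*.

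With the cortical score as a covariate beside genotype, 0 of 40 members were lower or higher at an unadjusted p of 0.05 in the quasi-likelihood test, where 0.699% and 1.37% of all genes were, and the smallest p was 0.0694, for *Cplx3* (-0.22). The median log2 fold change of the 12 lower members went from -0.22 to -0.10, and 11 of 12 kept a negative sign. *Stx1a* went from -0.38 to 0.06 and *Rims1* from -0.41 to -0.19, whereas *Rab3c* went only from -0.20 to -0.18 (p = 0.0812) and *Cadps2* from -0.46 to -0.17 (p = 0.0976). The fit held Line 4a mouse 1, whose *Rims1* level was 27.7 CPM against 77.7 CPM in the next mouse. It was not run without that library, so the value left for *Rims1* may rest on it. The score itself was lower in most Line 4a mice, so this fit cannot separate a genotype effect from a difference in cortical transcripts, and how much cortical tissue each punch held was not tested.

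The rest of the release pathway was counted in 3 further lists. Of 53 tested genes that act in release but are not among the 40, 16 (30.2%) were lower at an unadjusted p of 0.05 and 0 were higher, beside 5.14% and 4.86% of all genes tested, with a median log2 fold change of -0.11. *Sv2b*, the SV2 found largely at excitatory terminals, was at 275.9 ± 49.1 CPM in B6 and 205.5 ± 32.2 CPM in Line 4a mice (-0.43, SE 0.11, p = 0.000985, FDR 0.331 in the quasi-likelihood test). *Syt13* (-0.26), *Lin7a* (-0.25) and *Dmxl2* (-0.22) followed. Of 28 genes of vesicle endocytosis, 5 were lower and 0 higher, with a median of -0.04, led by *Sh3gl2* (-0.15), *Dnajc6* (-0.13), *Cltc* (-0.12) and *Amph* (-0.10). Of 20 genes for dense-core vesicle cargo and granins, 6 were lower and 0 higher (median -0.08). Among these, *Bdnf*, the neurotrophin whose release CAPS2 is known to aid, was at 10.7 ± 3.31 CPM in B6 and 6.59 ± 0.93 CPM in Line 4a mice (-0.71, SE 0.15, p = 0.000161, FDR 0.292), and the prohormone convertase *Pcsk1* had medians of 10.9 and 8.28 CPM (-0.47, SE 0.10, p = 0.000219, FDR 0.292). *Chgb* (-0.18) and *Pam* (-0.15) were lower as well.

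Markers of other cell types differed in direction. Of 12 pan-neuronal markers, 1 was lower (*Stmn2*, -0.19) and 1 higher (*Nefm*, 0.16), with a median log2 fold change of 0.01. Of 12 markers of striatal interneurons, 3 were higher, led by *Lhx8* (0.36) and *Slc5a7* (0.19), the choline transporter, and 1 was lower. The mean was higher in Line 4a mice in 12 of 16 projection neuron markers (such as *Penk*, 0.12, and *Ppp1r1b*, 0.13), in 9 of 9 oligodendrocyte markers (*Mag*, 0.22, and *Ermn*, 0.13), in 7 of 7 microglial markers (*Csf1r*, 0.13, and *Aif1*, 0.13) and in 7 of 7 choroid plexus markers (*Clic6*, 0.10, and *Ttr*, 0.51), and 0 of these passed. The summed levels were 10227 to 14600 CPM in B6 and 11305 to 15884 CPM in Line 4a mice for oligodendrocytes, 447.4 to 537.8 and 502.0 to 578.2 CPM for microglia, and 22.4 to 132.4 and 31.9 to 173.9 CPM for choroid plexus. Of 8 thalamic markers 6 had a lower mean and 1 passed (*Rora*, -0.62, followed by *Calb2*, -0.47), and of 10 tested markers of septum and hypothalamus 7 had a lower mean and 0 passed (*Cartpt*, -0.45, and *Zic4*, 0.20). Among astrocyte markers *Gjb6* (0.20) passed and *Aldh1l1* (0.10) did not, and among endothelial and mural markers *Acta2* (0.45) passed and *Pdgfrb* (0.17) did not. Their part in the members' values was not tested.

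Of the 40 members, *Vamp2* (chr11:69088528-69092381), *Doc2b* (chr11:75768270-75796060) and *Nsf* (chr11:103821782-103954056) lie on chromosome 11, which carries the D2 segment of Line 4a, but outside that segment as the study places it. Their log2 fold changes were -0.06, 0.01 and -0.05, and none of the 12 lower members is on that chromosome.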

How the data were processed

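RNA was measured by 50 bp single-end sequencing of oligo-dT libraries (TruSeq Stranded mRNA) from the striatum of 16 mice. The authors aligned the reads with TopHat and bowtie2 2.2.2 to mm10, assigned them to genes with htseq-count 0.6.1p1 (union mode, strand ignored), and deposited raw counts for each mouse and lane, without normalization. Reads with several alignments or overlapping several genes are not in these counts, so a member's level leaves out exon bases shared with another gene. In 29 members no exon base was shared in GENCODE vM1 (mm9), and overlaps in the annotation used for counting were not checked. The summary rows for unassigned reads were left out, and between 61.4% and 68.3% of the reads in a table were on genes. Deposited tables of the authors' own fold changes and p-values were not used.

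Lane counts were summed per mouse, the lane pairs of 15 mice differing by no more than sampling noise (chi-square per degree of freedom 0.997 to 1.05). Lane 7 of B6 mouse 7 was not analysed here. Genes were filtered with filterByExpr, TMM-scaled and compared in edgeR 4.0.16 (R 4.3.3) by the quasi-likelihood test, with genotype as the only term and Benjamini-Hochberg adjustment over 15589 genes. The study's model also held home cage, which the labels do not give, nor do they give the sex of each mouse. CPM are TMM-scaled, with a prior count of 0.5 for log2 values. Exact permutation tests covered all splits of 8 against 8 mice (scipy 1.17.1). The relation to the cortical score was tested by permuting mice within genotype, a choice made after seeing the data. DESeq2 1.42.0, other scalings and filters, lanes and single mice left out were alternatives, and leaving out the pair of libraries that stood apart was chosen after seeing the data. The pipeline was tested on simulated data. Most mice did not correlate best with the mouse of the same number, and numbers were not used as pairs in the main fit.

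Exon lengths and overlaps are from GENCODE vM1 (mm9), positions and sequences from RefSeq (GRCm38.p6), the files' build. The members and all lists were chosen with earlier results of these data known. Members at an unadjusted p under 0.05, the 10 with the highest level per kb, members with a mouse that stood out, and from each pathway list the 4 genes and from each marker list the 2 genes with the smallest p were to be named. The labels give punches of 3 mm and an age of about 50 days, and the study's methods differ from the labels in punch size, age range and RNA kit.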

Additional observations from a re-analysis of the deposited data

Results flagged for a closer look

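In each genotype and member, 80 groups of 8 mice in all, the highest and lowest mouse were set against the others by Dixon's ratio, with a limit of 0.526. A mouse stood out in 23 groups, where chance gives about 1 in 20, or 4. Of the 23, 16 were Line 4a mouse 1, 5 were B6 mouse 8 and 2 were other mice.

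Line 4a mouse 1 was the lowest of its genotype for 11 members. These were *Sv2c* (5.83 CPM, next mouse 45.5), *Rims3* (2.2, next 15.8), *Rims1* (27.7, next 77.7), *Rims2* (101.6), *Unc13a* (205.3), *Napb* (169.8), *Syt2* (21.4), *Syt7* (194.7), *Syn3* (42.6), *Sv2a* (334.8) and *Cplx2* (1500.0 CPM). It was the highest for 5, *Rab3a* (487.8 CPM, next 358.9), *Rab3b* (55.6), *Vamp2* (1136.7), *Napa* (260.3) and *Cplx1* (856.1 CPM). In this library 27.3% of reads had several alignments, and over all genes 32.1% deviated from the other Line 4a mice by more than 0.5 on the log2 scale, beside 12 of 40 members. Whether the quality of this RNA sample has a part in these values was not tested.

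B6 mouse 8 was the highest B6 mouse for *Napa* (233.4 CPM), *Cplx2* (2509.6), *Syt5* (145.3) and *Sv2c* (70.9) and the lowest for *Cadps* (169.8 CPM). *Syt11* was lowest in Line 4a mouse 2 (960.0 CPM, next 1009.0), and *Syt17* highest in Line 4a mouse 4 (12.1 CPM, next 8.27).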

How the results depend on the processing

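Across 29 alternatives, 1095 of 1160 log2 fold changes of single members kept their sign, and for the 12 lower members 347 of 348 stayed below 0. The count of lower members at an unadjusted p of 0.05 was 11 to 17 with 1 mouse left out, 4 on lanes 5 and 6 (8 mice) and 0 with the cortical score covariate. The count of higher members was 0 to 1 with 1 mouse left out (0 without B6 mouse 1, 3, 7 or 8 or Line 4a mouse 3, 6, 7 or 8), 0 on lanes 5 and 6, 3 on lanes 7 and 8, 0 with the cortical score and 0 with mouse number as a replicate block. The block lowered *Vamp1* to p = 0.0674 and left all 12 lower members past 0.05. Same-numbered mice correlated at -0.115 to 0.364, and 2 of 8 correlated best with their own number. The highest pair, number 6, stood at 0.364 against a mean of -0.015 with other numbers. This check cannot exclude that some same-numbered mice shared a litter or cage, and the main fit did not pair them. Members at an FDR of 5% were 1 with DESeq2 and 1 with edgeR's likelihood ratio test (*Cadps2*). Members at an FDR of 20% were 6 and 5 with these tests, 1 with the block, 1 without both libraries that stood apart, and 0 to 4 with 1 mouse left out (2 without B6 mouse 4, 4 without B6 mouse 7 and 4 without Line 4a mouse 2). Over all genes the counts were 264 and 186 with these tests, 3 with the block, 14 without both libraries, and 84, 90 and 114 without those mice. The median log2 fold change of the 40 ran from -0.13 to -0.06. The causes of these shifts were not tested. *Rims1* reached p = 0.0648 at most with 1 mouse left out, and *Cplx3* had -0.19 (p = 0.059) from the second lane alone.

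Of the 40 members, 19 had a sign that turned under some alternative, most of them with log2 fold changes close to 0 but also *Stx1a* (from -0.38), *Syt2* (from 0.17), *Unc13b* (from -0.15) and *Sv2c* (from -0.13). With the cortical score the log2 fold change was 0.099 for *Snap25*, 0.058 for *Stx1a*, 0.019 for *Vamp2*, 0.075 for *Unc13b*, 0.06 for *Syn1*, -0.065 for *Syt2*, -0.023 for *Syt6*, -0.092 for *Doc2b*, -0.13 for *Unc13c*, -0.011 for *Rab3b*, -0.027 for *Syn3* and -0.076 for *Sv2a*. On lanes 5 and 6 it was 0.0201 for *Vamp2*, -0.011 for *Syt2*, -0.087 for *Unc13c*, -0.068 for *Syn3* and -0.11 for *Sv2a*. On lanes 7 and 8 it was 0.0086 for *Nsf*, -0.069 for *Napa*, -0.019 for *Syt6*, -0.0093 for *Doc2b*, 0.088 for *Cadps*, -0.034 for *Rab3a* and -0.0504 for *Rab3b*. Without both libraries that stood apart it was 0.019 for *Cplx2*, 0.0072 for *Syt11*, -0.045 for *Rab3a*, -0.038 for *Rab3b* and 0.13 for *Sv2c*. It was -0.015 for *Syt6* from the second lane alone, 0.0049 for *Syt11* with upper-quartile scaling and -0.0078 for *Syn3* with the block. With 1 mouse left out the ranges crossed 0 for *Napa* (-0.021 to 0.064), *Syt6* (-0.029 to 0.049), *Syt11* (-0.014 to 0.0087), *Doc2b* (-0.024 to 0.053), *Unc13c* (-0.013 to 0.13), *Cadps* (-0.053 to 0.0094), *Rab3a* (-0.059 to 0.043), *Rab3b* (-0.049 to 0.039), *Syn3* (-0.022 to 0.068), *Sv2a* (-0.0066 to 0.0601) and *Sv2c* (-0.20 to 0.0396).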
